A study of Mus musculus with 7 samples.

Results

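The proteasome genes were described in megakaryocyte-erythroid progenitors, the bone marrow cells that give rise to platelets and red blood cells, of double knockout mice, which lack Ssb1 and Ssb2 (gene symbols Nabp2 and Nabp1), and of controls. The genes were all those of the array annotation whose symbol starts with Psma, Psmb, Psmc, Psmd or Psme and a digit, leaving out Psmb8 and Psmb9. The rule gave 40 genes of 16593 annotated, with 61 probes, and 38 of these genes could be tested among 7547 genes with a detected probe. Psmc3ip, a recombination factor, and Psme3ip1, a partner of Psme3, met the rule by their symbols and are not proteasome subunits. Psma1 and Psma6 had 1 probe each, which none of the 7 arrays detected, and they are not described further.

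The double knockout group held 3 arrays from mice that lack both single-stranded DNA binding proteins. The control group held 4 arrays, titled as controls and sourced from mice labelled WT. All mice were female C57BL/6, and the cells of both groups had been sorted by the same gate, as low in lineage markers, CD34 and Fc gamma receptors, without Sca-1 and with c-Kit. The labels state neither how the genes were deleted, nor the age of the mice, nor whether each array came from a separate animal, so the p-values measure the spread between these arrays.

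The proteasome degrades proteins tagged with ubiquitin. Its 20S core is a barrel of alpha rings, which form the gate, and beta rings, which hold the cutting sites. The 19S cap binds ubiquitin, removes it and unfolds the protein with a ring of ATPases, while the PA28 and PA200 proteins are other activators that open the core. Interferon induces Psme1 and Psme2, the subunits of PA28, and Psmb10, which takes the place of the catalytic subunit Psmb7 in the immunoproteasome. Nfe2l1, a transcription factor also known as Nrf1, raises the genes of core and cap through antioxidant response elements when proteasome activity is low.

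Promoters are shown for 3 genes of core and cap that were lower in the double knockout and hold the core letters of that element, TGACNNNGC on either strand, where N is any base. Each stretch is the 250 bases before the gene's start in RefSeq, build GRCm38.p6, on the gene's strand, with the element in capitals: Psmb5 at chr14:54617996-54618245 on the minus strand, Psmb6 at chr11:70525107-70525356 on the plus strand and Psmc6 at chr14:45329574-45329823 on the plus strand.
Psmb5: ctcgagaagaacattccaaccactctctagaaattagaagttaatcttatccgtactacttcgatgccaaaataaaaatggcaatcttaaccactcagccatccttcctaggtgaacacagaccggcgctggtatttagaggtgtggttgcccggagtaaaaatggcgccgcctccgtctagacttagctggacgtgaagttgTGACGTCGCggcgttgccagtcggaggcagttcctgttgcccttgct
Psmb6: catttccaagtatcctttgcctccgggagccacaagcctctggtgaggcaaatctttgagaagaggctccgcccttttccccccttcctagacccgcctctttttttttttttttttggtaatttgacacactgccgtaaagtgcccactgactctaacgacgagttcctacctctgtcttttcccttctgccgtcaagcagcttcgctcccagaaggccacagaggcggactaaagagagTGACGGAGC
Psmc6: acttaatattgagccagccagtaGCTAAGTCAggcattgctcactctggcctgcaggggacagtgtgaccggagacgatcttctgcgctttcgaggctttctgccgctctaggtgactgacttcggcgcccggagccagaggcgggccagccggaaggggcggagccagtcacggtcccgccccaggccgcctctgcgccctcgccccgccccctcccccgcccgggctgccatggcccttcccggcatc
Counted from the gene's start, the element lay at -47 to -39 in Psmb5, at -9 to -1 in Psmb6 and, on the opposite strand, at -227 to -219 in Psmc6. Over the window from 250 bases before to 50 after the start, 6 of 35 member genes with a promoter entry held these letters (17.1%), against 3781 of 27025 genes of the table (14%). The others were Psmd12, Psmd9 and Psme4, and Psmb1, Psmb2, Psmb7, Psmc3 and Psmd7 had no entry. A second site is shown because it lies in the 1 member that rose, Psme1. The pattern of GAAA, any 2 bases and GAAA again, part of the element bound by interferon regulatory factors, lay 10 to 19 bases after the gene's start on the opposite strand, in chr14:55578493-55578522 on the plus strand of the same build.
Psme1: cgagctgtgcTTTCGCTTTCccttcccgct
The second pattern was found in 4 of the 35 members (11.4%; Psmb3, Psmd4, Psmd9 and Psme1) and in 3.99% of all genes of the table. Of these members, Psmb3, Psmd4 and Psmd9 were not called, and the changes of Psmd4 and Psmd9 were below 0. The interferon-linked Psmb10 and Psme2 had an entry that did not hold the pattern. Psmd9 held both patterns, without overlap between them. Both strands were searched for each. A match of letters is a description and shows no binding.

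The array mean of the linear signal was 651 to 670 on the double knockout arrays and 443 to 615 on the control arrays, and 41.2% to 43.4% of probes were detected in the double knockout against 36.6% to 40.3% in controls. Nabp2 had a normalized log2 signal of 7.09 ± 0.0368 (SD, n = 3) in the double knockout against 9.13 ± 0.360 (SD, n = 4) in controls. A dimmer second probe of Nabp2 was at -0.95 (adjusted p over all kept probes = 0.00790), against -2.04 for the first, and both were detected on all 7 arrays, while the probe of Nabp1 was detected on no array. Of 8 annotated markers of megakaryocyte-erythroid progenitors all 8 were detected and 1 changed, Itga2b, which was higher. All 4 tested B-lineage markers were lower, with a summed level of 134 to 205 in the double knockout and 542 to 1092 in controls, and 3 of 8 neutrophil and monocyte markers were higher and 1 lower, at 1783 to 3548 against 921 to 1922. Fcgr2b, of 2 tested markers that the gate excludes, and Cpa3, of 2 tested mast cell and basophil markers, were higher, and 0 of 2 T and NK cell and 0 of 3 macrophage markers were called. The part of such cells in the proteasome results was not tested. In sorted bulk RNA, fewer cells of a type and less RNA per cell cannot be told apart.

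Among the 38 tested members, 10 were lower and 1 higher in the double knockout by limma with Benjamini-Hochberg adjustment over all genes at 0.05. Of all genes tested, 27.2% were called, 12.8% lower and 14.4% higher. The members' share of calls in either direction, 28.9%, was near that background, while the shares by direction were 26.3% lower and 2.63% higher. The median log2 change of the members was -0.20, against 0.0114 for all genes, and 29 members lay below 0 (76.3%, against 49.1% of all genes). The groups did not overlap for 18 members that were lower and 5 that were higher, where 18.1% of all genes were lower and 20.3% higher without overlap. The 10 falls were small, 1.30-fold to 1.54-fold. Leaving out an array in turn gave 2 to 9 falls, with 3, 5 and 2 without double knockout arrays 1, 2 and 3 and 5 without control array 3. Of all genes, 6.82%, 9.47%, 6.7% and 9.45% were lower in these 4 fits, and the 2 or 3 falls left without double knockout 3 or 1 are close to such shares.

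These changes are relative to the typical gene of cells whose arrays differed in brightness. With quantile normalization the median gene was at 0.0114, while scaling each array to the median over all probes put the median gene at 0.52 and the members' median at 0.19, and then 0 members were called lower and 7 higher, where 1.54% and 49.9% of all genes were called. Scaling by the median over those probes that every array detected put the median gene at -0.14 and the members at -0.48, with 20 lower and 0 higher, against 23.6% and 10.3% of all genes. With the mean signal of the array as a covariate 0 members were called by limma, and 9 genes of 7547 were lower and 34 higher. The members' median was then -0.17. The groups did not overlap in mean signal, so that fit could not separate brightness from genotype. At an unadjusted p under 0.05, 3 members were lower and 1 higher with that covariate, where 6.76% of all genes were lower and 7.66% higher. Under median scaling over all probes 0 were lower and 10 higher at that p, against 1.97% and 55.4% of all genes, and under scaling over detected probes 25 were lower and 0 higher, against 31.8% and 14.7%. In the linear signals as deposited, the groups did not overlap for 9 members, all 9 higher in the double knockout, and 0 members were lower on every double knockout array. Of all genes, 43.9% were higher and 0.702% lower without overlap on that scale.

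**Figure D1:**
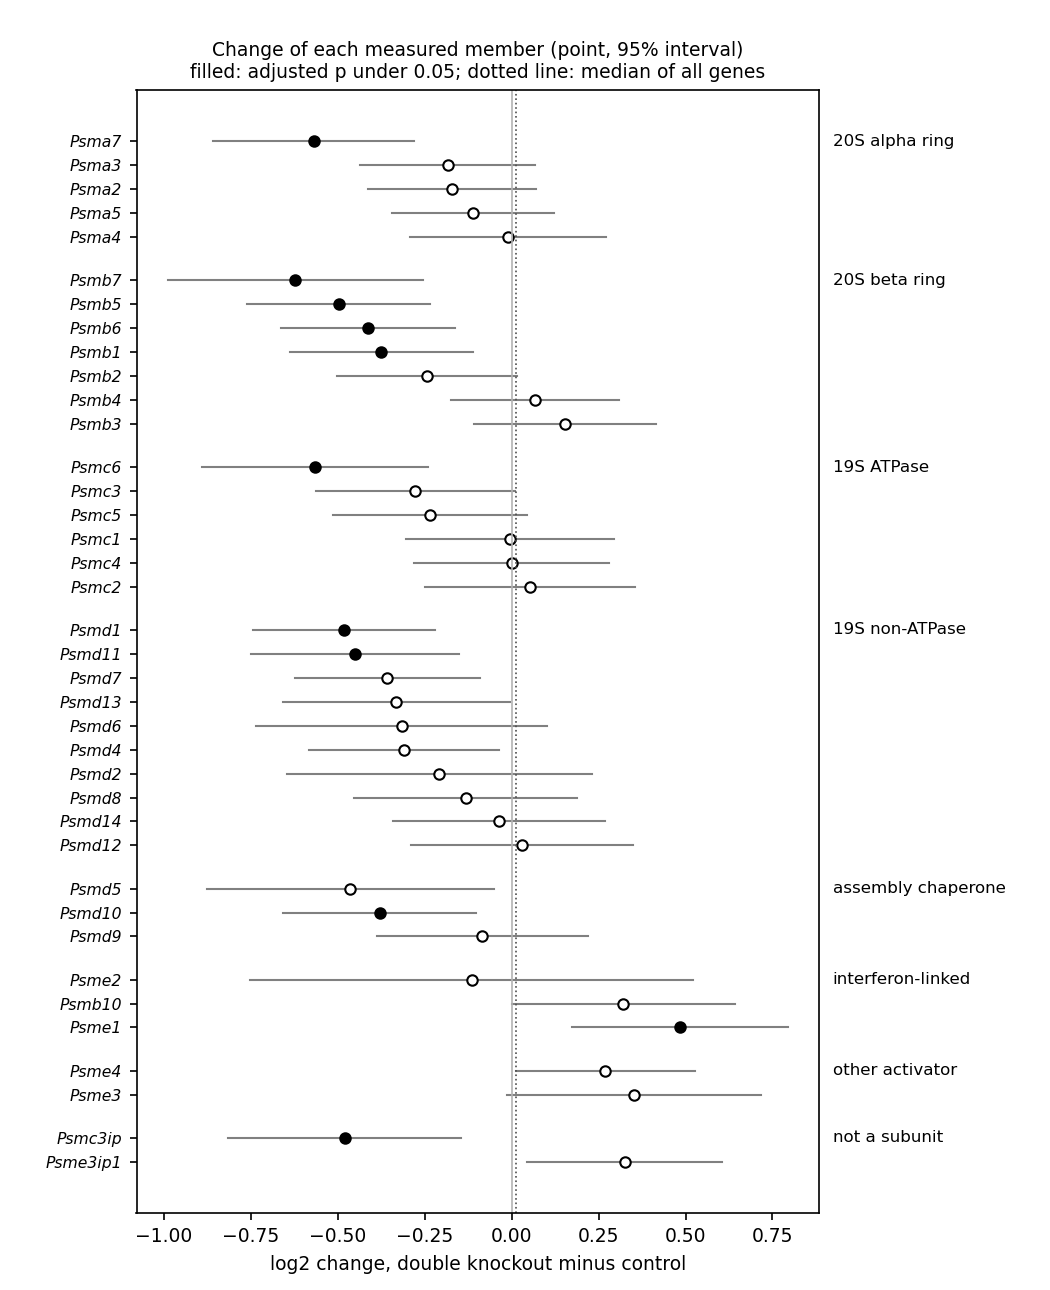
Log2 change of each of the 38 tested members, double knockout minus control, with its 95% interval, ordered by class. Filled points passed the test, 10 below 0 and 1 above it. Under median scaling over all probes 0 members were called lower.

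The alpha rings of the 20S core had 1 fall among 5 tested genes (20%, against 12.8% of all genes). Psma7, an alpha subunit, had a normalized log2 signal of 11.77, 11.51 and 11.86 on the double knockout arrays, against 12.33, 12.13, 12.34 and 12.32 on the control arrays. Every double knockout array lay below every control array. Psma7 was at -0.57 on the log2 scale (SE 0.129, adjusted p = 0.0121 by limma), 11.7 ± 0.182 (SD, n = 3) against 12.3 ± 0.0997 (SD, n = 4). It was the member whose call held whichever of the 7 arrays was left out (adjusted p 0.0169 to 0.0417), and its other probe was at -0.63 (adjusted p over all kept probes = 0.0128). Its linear signals overlapped, at 4292, 3556 and 4455 in the double knockout and 4860, 3588, 3704 and 5751 in controls. The alpha subunits Psma2, Psma3, Psma4 and Psma5 ranged in change from -0.18 to -0.0100 and did not pass the test. The groups did not overlap for 3 of them, all lower, where 18.1% of all genes were lower without overlap.

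The beta rings of the 20S core had 4 falls among 7 genes (57.1%, against 12.8% of all genes). They included all 3 constitutive catalytic subunits, Psmb5, which carries the chymotrypsin-like site, Psmb6, which carries the caspase-like site, and Psmb7, which carries the trypsin-like site. Of the 4 beta subunits without a cutting site, 1 fell. This split by activity was made after the values were seen and is a description.

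Psmb7 had a log2 signal of 11.68, 11.21 and 11.33 in the double knockout, against 12.32, 11.87, 12.05 and 11.87 in controls. It was the lowest of all members in its change, -0.62 (SE 0.164, adjusted p = 0.0219 by limma), with double knockout array 1 nearest to the controls. Its 2 other probes were at -0.54 and -0.53 (adjusted p over all kept probes = 0.0751 and 0.0266), and the call of the gene was lost without double knockout array 2 or 3 (adjusted p = 0.0756 and 0.0816). Psmb5 read 11.32, 11.51 and 11.57 in the double knockout, against 12.02, 11.87, 12.02 and 11.96 in controls. Its change was -0.50 (SE 0.117, adjusted p = 0.0144 by limma), and the groups did not overlap. Without double knockout array 1 the adjusted p of Psmb5 was 0.0633.

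Psmb6 had values of 12.42, 12.48 and 12.41 in the double knockout, against 12.88, 12.75, 12.96 and 12.81 in controls. The double knockout arrays of Psmb6 were close together, at 12.4 ± 0.0375 (SD, n = 3) against 12.8 ± 0.0910 (SD, n = 4). Its change was -0.41 (SE 0.111, adjusted p = 0.0238 by limma), lost without double knockout array 1 or 3 or control array 3 (adjusted p = 0.0768, 0.0867 and 0.0604). Psmb1, a beta subunit without a cutting site, read 13.19, 13.17 and 13.23 in the double knockout, against 13.69, 13.49, 13.67 and 13.44 in controls. The groups of Psmb1 did not overlap, and its change was -0.37 (SE 0.117, adjusted p = 0.0405 by limma), a call that held only without control array 4 among the 7 fits that left out an array (adjusted p 0.0599 to 0.110 in the others). Of the beta subunits that did not pass the test, Psmb2 was at -0.24, Psmb4 at 0.0675 and Psmb3 at 0.15. The interval of Psmb4 ran from -0.17 to 0.31 and that of Psmb3 from -0.11 to 0.42.

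The 4 beta falls and that of Psma7 were below 0 under each of the scalings, between -0.24 for Psmb7 and -0.0933 for Psmb6 under median scaling over all probes, where none passed the test. The median of the 12 core genes was -0.21 after quantile normalization, with 10 below 0 (83.3%, against 49.1% of all genes). For 9 of the 12 the groups did not overlap, all 9 lower, where 18.1% of all genes were lower without overlap. By array, the median deviation of the core genes from the control mean was -0.27, -0.21 and -0.22 in the double knockout and 0.050, -0.0726, 0.0275 and 0.00224 in controls. The 3 double knockout arrays thus lay below the 4 controls for the core as a whole.

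**Figure D2:**
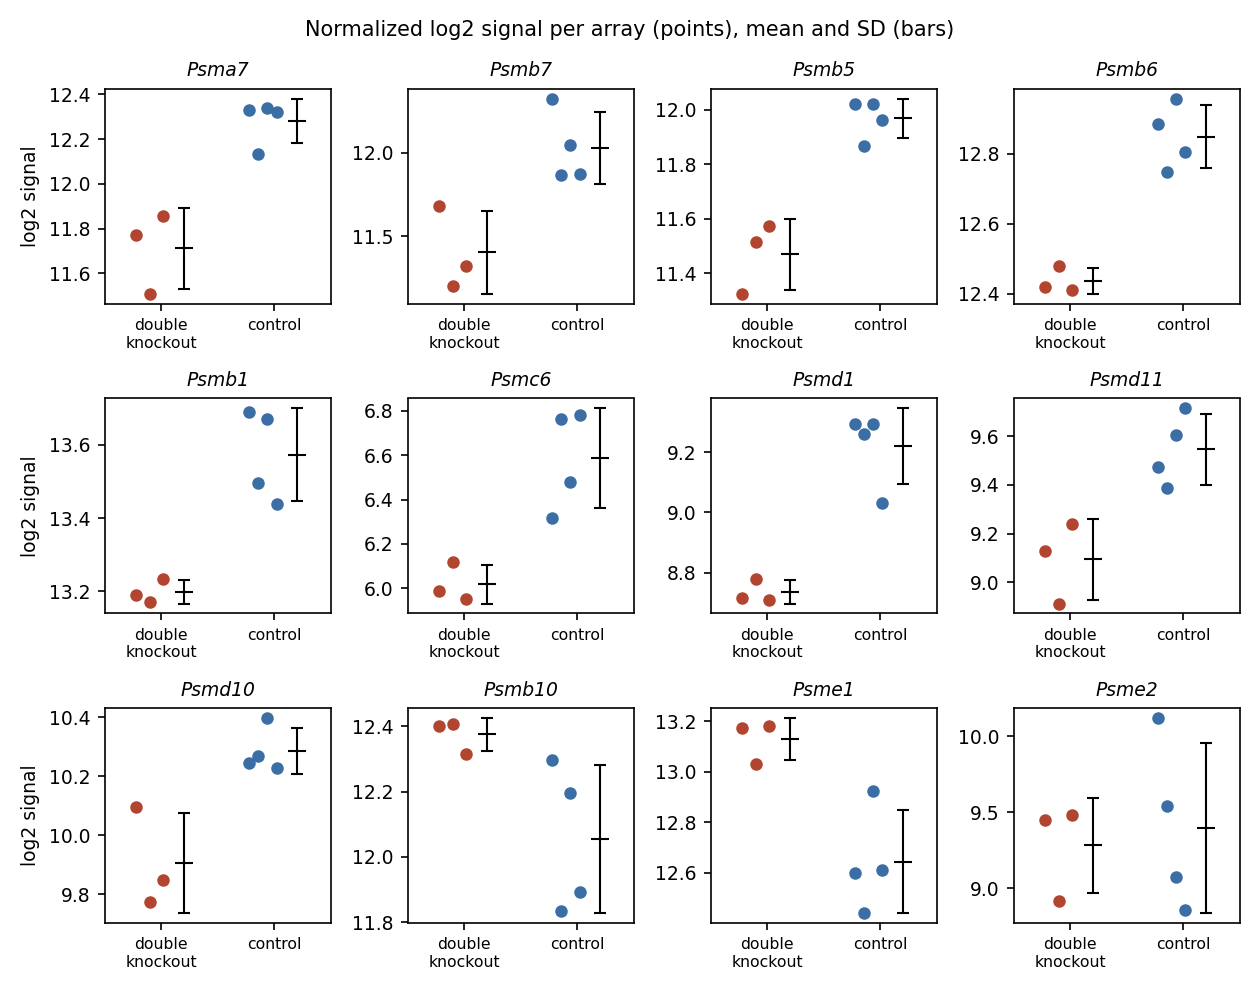
Normalized log2 signal of 12 members on each array (points), with the mean and SD of each group beside them, double knockout on the left and control on the right. The axes differ between panels. The groups do not overlap for any member shown but Psme2, where 38.5% of all genes are without overlap. Apart from the 3 interferon-linked members, those shown were chosen because they passed the test, so their separation is not separate support. The changes of Psmd1, Psmd10 and Psmd11, which passed the test, and that of Psme2, which did not, are above 0 under median scaling over all probes. The median gene is at 0.52 under that scaling.

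The 19S cap had 3 falls among 16 genes (18.8%, against 12.8% of all genes), 1 of 6 ATPases and 2 of 10 other subunits. Psmc6, an ATPase of the base of the cap, read 5.99, 6.12 and 5.95 in the double knockout, against 6.32, 6.76, 6.48 and 6.78 in controls. Its probe was dim, with linear signals of 190 to 200.2 in the double knockout and 164 to 238 in controls, though detected on all 7 arrays. The change of Psmc6 was -0.57 (SE 0.145, adjusted p = 0.0199 by limma), but -0.24 without background correction (adjusted p = 0.0516), and the adjusted p was 0.0666 and 0.0769 without double knockout array 1 or 3. The other ATPases, Psmc1 to Psmc5, lay between -0.28 and 0.0523. Psmc4 and Psmc1 had the smallest differences, with an interval of -0.28 to 0.28 for Psmc4 and of -0.31 to 0.29 for Psmc1.

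Psmd1, a large scaffold of the cap, read 8.72, 8.78 and 8.71 in the double knockout, against 9.29, 9.26, 9.29 and 9.03 in controls. Its change was -0.48 (SE 0.117, adjusted p = 0.0161 by limma), but 0.18 under median scaling over all probes, where the median gene was at 0.52. The call was lost without double knockout array 1 or 3 (adjusted p = 0.0575 and 0.0644). Psmd11, a subunit of the lid of the cap, read 9.13, 8.91 and 9.24 in the double knockout, against 9.47, 9.39, 9.61 and 9.71 in controls. Psmd11 was at -0.45 (SE 0.134, adjusted p = 0.0337 by limma), or 0.20 under median scaling over all probes, and of the fits that left out an array only those without control 1 or control 2 kept the call (adjusted p 0.0576 to 0.111 elsewhere). The lid and base subunits Psmd2, Psmd4, Psmd6, Psmd7, Psmd8, Psmd12, Psmd13 and Psmd14 did not pass and ranged from -0.36 to 0.0304. Psmd7, the partner of the deubiquitinase Psmd14 in the lid, stood just short of the threshold at adjusted p = 0.0505 by limma. Its dimmer probe was at -0.66 (adjusted p over all kept probes = 0.0382). A second probe of Psmd2, detected on 4 arrays, was at -0.50 (adjusted p over all kept probes = 0.0305). The second probes of Psmd6 and Psmd12 did not pass.

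The median of the 16 cap genes was -0.26, close to that of the core, and 14 of them were below 0 (87.5%, against 49.1% of all genes). Their median deviation by array was -0.24, -0.21 and -0.26 in the double knockout and -0.19, 0.0134, 0.0671 and 0.13 in controls. Control array 1 stood near the double knockout arrays for the cap, and not for the core. Relative to the median gene, core and cap were at -0.22 and -0.27 after quantile normalization and at -0.49 and -0.33 after either median scaling. Both median scalings give the same relative values by construction. The order of core and cap therefore depended on the normalization, and the difference between them was not tested.

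**Figure D3:**
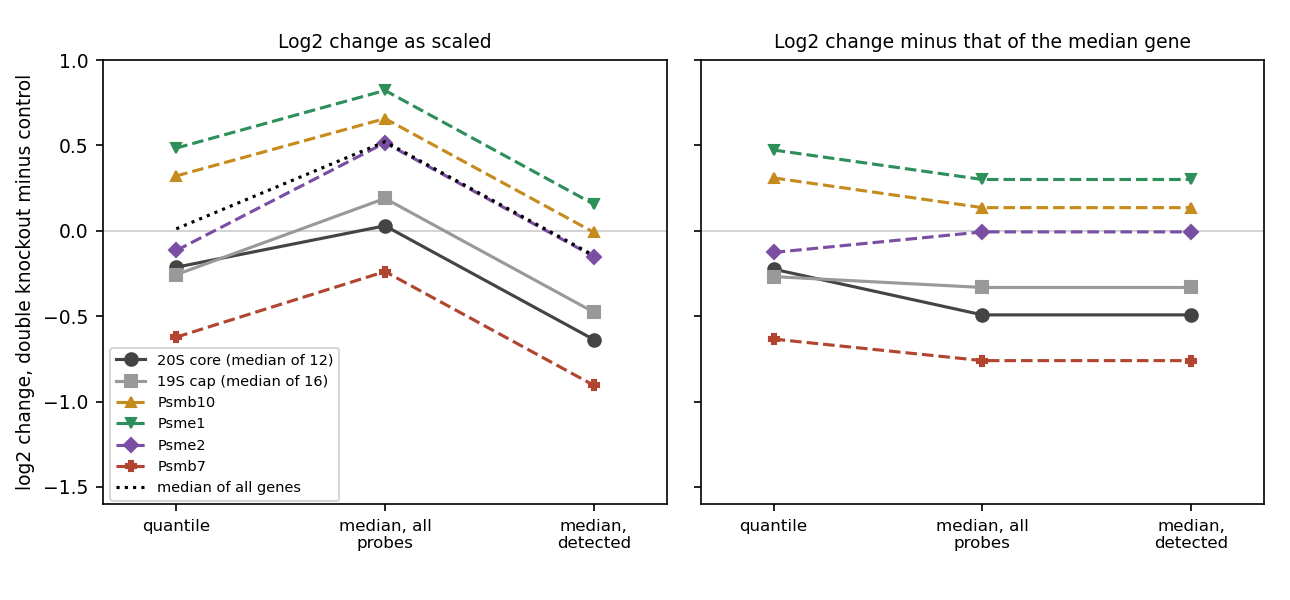
Log2 change, double knockout minus control, of the 20S core, the 19S cap and 4 single members under 3 normalizations between arrays, as scaled (left) and relative to the median gene of the same scaling (right). Relative to the median gene, core, cap and Psmb7 lie below 0 and Psme1 and Psmb10 above 0 under each of the 3. Both median scalings shift each array by a constant, so their relative values are the same by construction. As scaled, the core and cap medians are 0.0290 and 0.19 under median scaling over all probes.

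Of the 3 assembly chaperones of the cap with a Psmd symbol, 1 fell (33.3%, against 12.8% of all genes). Psmd10, also known as gankyrin, read 10.10, 9.77 and 9.85 in the double knockout, against 10.25, 10.27, 10.40 and 10.23 in controls. Its change was -0.38 (SE 0.123, adjusted p = 0.0470 by limma), or 0.22 under median scaling over all probes, where the median gene was at 0.52. It passed only without double knockout array 1 among the fits that left out an array (adjusted p 0.0617 to 0.151 in the others). Its 2 dimmer probes were at -0.98 and -0.49 (adjusted p over all kept probes = 0.0183 and 0.0234), and the mean of its probes was at -0.61 (adjusted p = 0.0158). Psmd5 was at -0.46 (adjusted p = 0.0895 by limma) and Psmd9 at -0.0845 (adjusted p = 0.667 by limma). Psmc3ip, not a subunit, was at -0.48 (SE 0.149, adjusted p = 0.0396 by limma), or 0.0469 under median scaling over all probes, with values of 10.46, 10.47 and 10.10 in the double knockout and 11.05, 10.87, 10.74 and 10.62 in controls. It passed only without control array 4 among the fits that left out an array (adjusted p 0.0578 to 0.160 in the others). Without Psmc3ip and Psme3ip1, 9 members were lower and 1 higher, a count added after the data were seen.

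Of the 3 interferon-linked members, 1 rose (33.3%, against 14.4% of all genes) and the other 2 did not pass the test. Psme1, the alpha subunit of PA28, read 13.17, 13.03 and 13.18 in the double knockout, against 12.60, 12.44, 12.93 and 12.61 in controls. All double knockout arrays were above all control arrays, and on the linear scale they were at 10914, 9653 and 10917 against 5940, 4537, 5504 and 6821. Psme1 rose 1.40-fold (log2 0.48, SE 0.138, adjusted p = 0.0297 by limma), and its other probe rose by 0.74 (adjusted p over all kept probes = 0.0170). The rise was 0.82 under median scaling over all probes and 0.16 over detected probes, where it did not pass (adjusted p = 0.457). Relative to the median gene Psme1 was at 0.30 under either median scaling. Of the fits that left out an array only those without double knockout 2 or control 3 kept the call (adjusted p 0.0527 to 0.102 elsewhere).

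Psmb10, a catalytic subunit of the immunoproteasome, read 12.40, 12.41 and 12.32 in the double knockout, against 12.30, 11.83, 12.20 and 11.89 in controls. The groups did not overlap, although control array 1 came close to double knockout array 3. The difference of 0.32 (interval 1.57e-05 to 0.64, adjusted p = 0.123 by limma) did not pass the test, and neither did that of 0.42 on its other probe (adjusted p over all kept probes = 0.0539). Under median scaling Psmb10 was at 0.66 over all probes (adjusted p = 0.0126) and at -0.00895 over detected probes. Over all probes 49.9% of all genes were called higher, and relative to the median gene Psmb10 was at 0.14 under either median scaling. Psme2, the beta subunit of PA28, read 9.45, 8.92 and 9.48 in the double knockout, against 10.12, 9.54, 9.08 and 8.86 in controls. The control arrays of Psme2 spread over more than the double knockout arrays, which lay among them, and the difference of -0.12 had an interval of -0.75 to 0.52 (adjusted p = 0.783 by limma). It was 0.52 under median scaling over all probes, where the median gene was also at 0.52.

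Beside these members, a short list of interferon response genes was chosen with earlier results of these data known. It held 10 genes, of which 8 were annotated, and Ifit1 was detected on no array. All 7 tested genes rose, with a median log2 change of 1.99, where 14.4% of all genes were higher. The smallest rise was that of the transcription factor Irf9, 0.79 (SE 0.193, adjusted p = 0.0162 by limma). That of Irf1, another transcription factor, was 1.82 (SE 0.234, adjusted p = 0.00128 by limma). Whether either binds the site shown in Psme1 was not tested. The changes of Psmb10, Psme1 and Psme2 were each smaller than that of Irf9, a difference that was not tested. The other activators, Psme3, which forms nuclear PA28 gamma, and Psme4, which is PA200, were at 0.35 and 0.27 (adjusted p = 0.137 and 0.111 by limma) and did not pass. Psme4 read 11.11, 10.94 and 10.97 in the double knockout, against 10.61, 10.73, 10.77 and 10.85 in controls. The groups of Psme3 and Psme4 did not overlap, with both genes higher, where 20.3% of all genes were higher without overlap.

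Psmb10 and Psmb7 occupy the same place in the beta ring, so their difference was followed within each array, where a median scaling between arrays cancels. Relative to the control mean, the log2 signal of Psmb10 minus that of Psmb7 was 0.69, 1.18 and 0.96 in the double knockout and -0.0545, -0.0582, 0.12 and -0.00924 in controls. Every double knockout array was above every control array, and the mean difference was 0.94 with an SD of 0.242 (n = 3) in the double knockout and of 0.0842 (n = 4) in controls. As the pair was chosen with the values known, the difference is a description, with no test. The value was 0.90 under both median scalings and 0.92 without background correction. For Psme1 minus Psme2, which join in one ring, the difference was 0.60, with double knockout arrays at 0.45 to 0.86 and control arrays at -0.77 to 0.60, so that the groups overlapped. It was 0.31 under both median scalings, and this pair too was chosen with the values known.

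Where a gene had several detected probes, the probes mostly moved the same way. This held for 13 of 14 members, Psmd12 being the exception at 0.0304 and -0.16. Of the 54 detected probes of the members, 17 were lower and 2 higher by limma with adjustment over all 10723 kept probes, where 26.3% of all probes were called, 12.8% lower and 13.5% higher. The widest gaps between probes were those of Psmd9 and Psmc5, followed by Psmd10, whose probes ran from -0.98 to -0.38. The brighter probe of Psmd9 was at -0.0845 while the dimmer read 6.56, 6.68 and 6.76 in the double knockout and 8.01, 7.80, 7.52 and 7.65 in controls, a change of -1.08 (adjusted p over all kept probes = 0.00179). The dimmer probe of Psmc5, an ATPase of the cap, was at -0.97 (adjusted p over all kept probes = 0.00892), and its brighter probe at -0.24. Which transcripts these probes bind was not looked up, as their sequences were not used here.

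**Figure D4:**
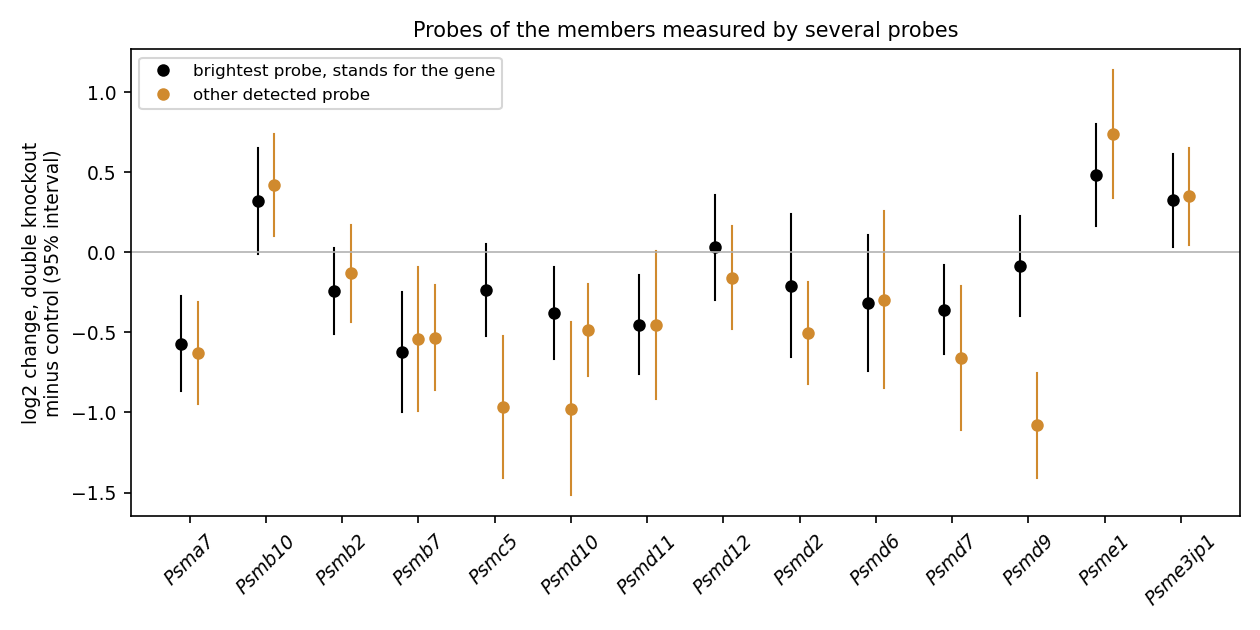
Log2 change, double knockout minus control, and 95% interval of each detected probe of the 14 members with several, with the brightest probe in black. The probes of Psmd9 lie at -0.0845 and -1.08 and those of Psmc5 at -0.24 and -0.97, while both probes of Psme1 lie above 0 at 0.48 and 0.74.

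Of 17 tested genes from a list of assembly factors, ubiquitin receptors and regulators of the proteasome, 2 fell and 2 rose (11.8% each), where 12.8% of all genes were lower and 14.4% higher, so these shares were no larger than those of all genes. The median log2 change of the list was 0.03, and this list too was chosen with results known. Psmg3, a chaperone of alpha ring assembly, read 10.45, 10.46 and 10.62 in the double knockout, against 11.62, 11.33, 11.45 and 11.18 in controls. It was 1.85-fold lower (log2 -0.89, SE 0.134, adjusted p = 0.00254 by limma), further than any subunit by the probe that stands for the gene, and the call held whichever array was left out (adjusted p 0.00392 to 0.0153). Under median scaling over all probes, which put the median gene at 0.52, Psmg3 was at -0.41 and did not pass (adjusted p = 0.125). Psmg1, another chaperone of the alpha ring, read 10.35, 10.46 and 10.43 in the double knockout, against 11.12, 10.90, 10.85 and 10.56 in controls. Its change was -0.45 (SE 0.144, adjusted p = 0.0455 by limma), or 0.0686 under median scaling over all probes, and passed only without control array 4 among the fits that left out an array (adjusted p 0.0787 to 0.134 in the others). Their partners Psmg2 and Pomp were at -0.22 and -0.15 and did not pass.

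Nfe2l1, the activator of proteasome genes, read 9.79, 10.06 and 9.55 in the double knockout, against 9.33, 9.14, 9.13 and 9.51 in controls. It rose 1.44-fold (log2 0.52, SE 0.157, adjusted p = 0.0358 by limma) with double knockout array 3 close to control array 4, and of the fits that left out an array only those without double knockout 3 or control 4 kept the call (adjusted p 0.0530 to 0.121 elsewhere). Ubqln4, which carries ubiquitin-tagged proteins to the proteasome, read 9.68, 9.93 and 9.90 in the double knockout, against 9.27, 9.48, 9.33 and 9.21 in controls. It rose 1.43-fold (log2 0.52, SE 0.124, adjusted p = 0.0156 by limma), a call lost without double knockout array 2 or 3 (adjusted p = 0.0509 and 0.0668). Under median scaling over all probes Nfe2l1 was at 1.17 and Ubqln4 at 1.15, where the median gene was at 0.52. The deubiquitinases of the cap Uchl5 and Usp14 were at 0.40 and 0.0373 (adjusted p = 0.0615 and 0.882 by limma).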

How the data were processed

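Signals of 1-colour Illumina MouseRef-8 v2.0 BeadArrays were compared between 3 double knockout and 4 control samples. The authors deposited an intensity per probe, with no background subtraction or scaling, and beside it a detection p-value against the negative controls of the array, per the file headers. GenomeStudio is named in the submitters' processing notes, without a version. The authors also deposited a processed log2 table, used as an alternative, whose values matched quantile-normalized log2 signals centred per probe (median correlation per probe 0.999972) and ran in their direction. Its column medians were 0.00164 to 0.00513, and the baseline of the centring is unknown.

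Signals were background-corrected and quantile-normalized with neqc in limma 3.58.1 (R 4.3.3) with an offset of 16. Of 25697 probes, 23978 had 1 symbol, 0 several and 1719 none in the platform annotation, and 10723 were kept at detection p under 0.05 on at least 3 arrays. Each gene took its kept probe of highest mean. Groups were compared with lmFit and eBayes over all 7547 genes, two-sided, with Benjamini-Hochberg adjustment at 0.05; the same fit was run on probes. Levels are normalized log2 signals, not comparable between genes. The members, classes and lists were chosen with earlier results of these data known. Array by array values follow a rule: the 3 interferon-linked genes, up to 4 called genes of each class by size of change, or the one of smallest p, and likewise for the list of related genes. Psmd9 was shown outside the rule, after its values were seen. On simulated data for this comparison (7547 genes, 200 changed, 10 runs) the fit recovered 20.9% of shifts of 0.5, 73% of shifts of 1 and 98.2% of shifts of 2 on the log2 scale, with 5.96% of calls false. In the measured arrays 27.2% of genes were called, and recovery with such a share of changed genes was not tested. The number of arrays limits the precision. Near-identical copies of a gene could share a probe's signal, which was not examined.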

Additional observations from a re-analysis of the deposited data

Results flagged for a closer look

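Among the 4 control arrays, 1 array stood apart from the other 3 for 2 of the 19 genes examined, more than Dixon's critical value at 95% allows, which chance passes in about 1 of 20 groups. For Psma7, control array 2 read 12.13 against 12.32 to 12.34 on the other controls, and it was still above every double knockout array. For Psmd1, control array 4 read 9.03 against 9.26 to 9.29 on the other controls.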

How the results depend on the processing

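Quantile normalization gave 10 members lower, 1 higher, 1 call among the interferon-linked members, 2 falls and 2 rises in the list of related genes, and medians of -0.21 for core and -0.26 for cap. Of all genes, 12.8% were lower and 14.4% higher. Median scaling over all probes gave 0 members lower and 7 higher, 2 interferon-linked calls, 0 falls and 11 rises in the related list, and medians of 0.0290 for core and 0.19 for cap. The median gene was then at 0.52, and 1.54% of all genes were lower and 49.9% higher. This scaling turned the direction of Psmc3ip (0.0469), Psmd1 (0.18), Psmd10 (0.22), Psmd11 (0.20), Psme2 (0.52) and Psmg1 (0.0686). Relative to the median gene, Psmc3ip was at -0.47, Psmd1 at -0.34, Psmd10 at -0.30, Psmd11 at -0.33 and Psme2 at -0.00652. Scaling over detected probes gave 20 lower and 0 higher, 0 interferon-linked calls, 5 falls in the related list, medians of -0.64 and -0.48, and Psmb10 at -0.00895. With it, 23.6% of all genes were lower and 10.3% higher. With array brightness, which did not overlap between the groups, as a covariate all these counts of members and related genes were 0. The core median was then -0.28 and Psme2 was at 0.0737, and 0.119% of all genes were lower and 0.451% higher. The number of members called higher was 3 in the processed table, 3 when background was not corrected, and 2 with a variance trend and robust fitting. Of all genes, 15.7%, 15.7% and 16% were higher. Psme3ip1, not a subunit, was among them in each, and was at 0.32 after quantile normalization (adjusted p = 0.0811 by limma). The members called lower in these fits were 14, 11 and 13, against 14.6%, 14.6% and 14.9% of all genes. Without a filter on dim probes 1 related gene fell and 1 rose, where 5.01% of all genes were lower and 5.79% higher. The shared replicate numbers did not pair the samples (correlations of same-numbered deviations -0.17, -0.0160 and 0.0277). The fit with a replicate block gave 4 members lower, 0 higher, 0 interferon-linked calls, and 1 fall and 0 rises in the related list. Psmc3ip, not a subunit, was among the 4, and 8.36% of all genes were lower and 9.59% higher in that fit. Leaving out each array in turn gave 2 to 9 members lower, 0 to 1 higher, 0 to 1 interferon-linked calls, and 1 to 2 falls and 0 to 2 rises in the related list. In those fits 6.7% to 11.9% of all genes were lower and 8.08% to 13.5% higher. Psme2 then ranged from -0.30 to 0.13, with 0.0655 without double knockout 2 and 0.13 without control 1. The cause of these changes was not tested. Dim probes such as those of Psmd2 and Psmc6 lie near background, which limits their precision.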
